A study of Homo sapiens with 6 samples.

Results

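The collagen genes of U2OS cells, a human line from a bone osteosarcoma, were followed through maps of N6-methyladenosine (m6A), a modification of internal adenosines in RNA. A gene was taken when its symbol was COL, a number, A and a number, with nothing after it. By this rule 19 collagen genes had an m6A peak in at least 1 of 3 peak lists, of 10785 genes in all. The lists came from wild-type cells given control siRNA, DF2 siRNA #1 or DF2 siRNA #2 (here siRNA 1 and siRNA 2). Both DF2 siRNAs are directed at YTHDF2, a reader protein that hastens the decay of m6A-bearing RNA. An antibody to m6A was used to pull down cytoplasmic RNA, broken into pieces near 100 nt long, and part of the RNA was kept as input. There were 6 libraries, an input and an enriched one in each of the 3 conditions, and the deposited data were 1 merged peak list per condition.

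Collagens are the main structural proteins of the matrix around cells and of bone. Their chains wind in groups into a triple helix, which is possible because glycine recurs regularly along each chain. Fibrillar collagens build the cables of bone, skin and tendon, network collagens build basement membranes and related sheets, and others sit on fibrils, form beaded filaments or span the cell membrane. In mRNA, m6A is best known around stop codons and in 3′ UTRs.

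The control list held 28 collagen peaks among 15272, the siRNA 1 list 21 among 13147 and the siRNA 2 list 24 among 13310. With 1 list per condition there is no replicate error, so no difference between conditions was tested. Intervals are 95% exact (Clopper-Pearson) binomial intervals and cover counting error only. A peak needs both RNA and m6A, and RNA levels were not used here. YTHDF2 had 1 peak in each list, and the lists do not show how far either siRNA lowered it. Of the osteoblast lineage markers reported, RUNX2 and COL1A1 had a peak in each list, while SP7, ALPL, BGLAP, IBSP and SPP1 had none. The labels also call the cells epithelial. Of 6 epithelial markers none had a control peak, and KRT8 and CLDN4 had at least 1 in both siRNA lists. By score KRT8 stood at percentiles 20.8 and 30.1 of the siRNA 1 and siRNA 2 lists, and CLDN4 at 5.75 and 21.7. At large, 36.5% of protein-coding symbols had a control peak, and 5.15% of genes in both siRNA lists had none in control. Of 6 chondrocyte and 6 fibroblast markers, MATN3 and FAP had a peak, both in control alone. The FAP peak had the lowest score and fold enrichment (3.42) of the control list. Of 4 endothelial markers, CDH5 had a peak in every list, and PECAM1 had 3 peaks in control, 1 with siRNA 1 and 0 with siRNA 2. Of 4 immune markers, CD68 alone had peaks, 2 with siRNA 2. The part of these marker differences in the collagen results was not tested.

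About as large a share of the collagen family carried m6A as of protein-coding genes at large. Of the 44 collagen genes in RefSeq, 17 or 38.6% (24.4 to 54.5) had a peak in the control list, against 36.5% of all protein-coding symbols. With siRNA 1 there were 14 or 31.8% (18.6 to 47.6), against 34.5%, and with siRNA 2 15 or 34.1% (20.5 to 49.9), against 33.8%. All 19 collagen symbols are current in RefSeq, while 7322 of the 9553 control symbols matched a protein-coding one. The others, which can include older names of coding genes, are not counted, so the background shares may be too low. The genes with a peak in every list numbered 12. They were COL1A1, COL5A1, COL5A2 and COL27A1 of the fibrillar collagens, COL4A2 and COL4A6 of basement membranes, COL6A1, COL6A3, COL8A1, COL12A1, COL13A1 and COL15A1. These are 63.2% (38.4 to 83.7) of the 19, beside 65.4% of all genes with a peak in any list. Among peaks with an FDR under 0.01 the genes in every list numbered 10, without COL4A2 and COL15A1. The share of all genes under this cut was not computed.

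The other 25 collagen genes had no peak in any list. The share of all protein-coding genes without a peak in any list was not computed, so this count has no background. Among the 25 were COL1A2, which supplies the second chain of type I collagen, COL3A1, COL2A1 of cartilage, COL11A1 and COL24A1 among the fibrillar genes. COL4A3, COL4A4 and COL4A5 of basement membranes, COL6A2, COL6A5 and COL6A6, the anchoring fibril gene COL7A1, COL8A2, COL10A1 and COL28A1 also had none. So did the fibril-associated COL9A1, COL14A1, COL16A1, COL19A1, COL20A1, COL21A1 and COL22A1, and the transmembrane COL17A1, COL23A1 and COL25A1. Partner chains of 1 molecule thus did not always share a peak. COL6A1 had one in every list and COL6A2 none, and COL1A1 had one in every list and COL1A2 none. Whether these genes lacked RNA or lacked m6A cannot be told apart here.

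By the authors' score, most collagen peaks stood below the middle of their list. The score is a whole number of undefined meaning, so each was turned into its percentile within its own list. Percentiles from different lists stand side by side and measure no change. The median collagen peak was at percentile 35.6 in control, 39.7 with siRNA 1 and 39.8 with siRNA 2. Above percentile 50 lay 8 of 28, 6 of 21 and 8 of 24 peaks. By the authors' fold enrichment the control median was percentile 48.7, close to the middle, while those of the siRNA lists were 37.6 and 37.2. Taking the strongest peak of each gene, the collagen median was 41.9, 37.1 and 39.8, and over all genes it was 60.1, 59.5 and 58.95. The collagen range was wide, from percentile 1.27 (COL9A2) to 96.4 (COL5A1) in control.

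**Figure D1:**
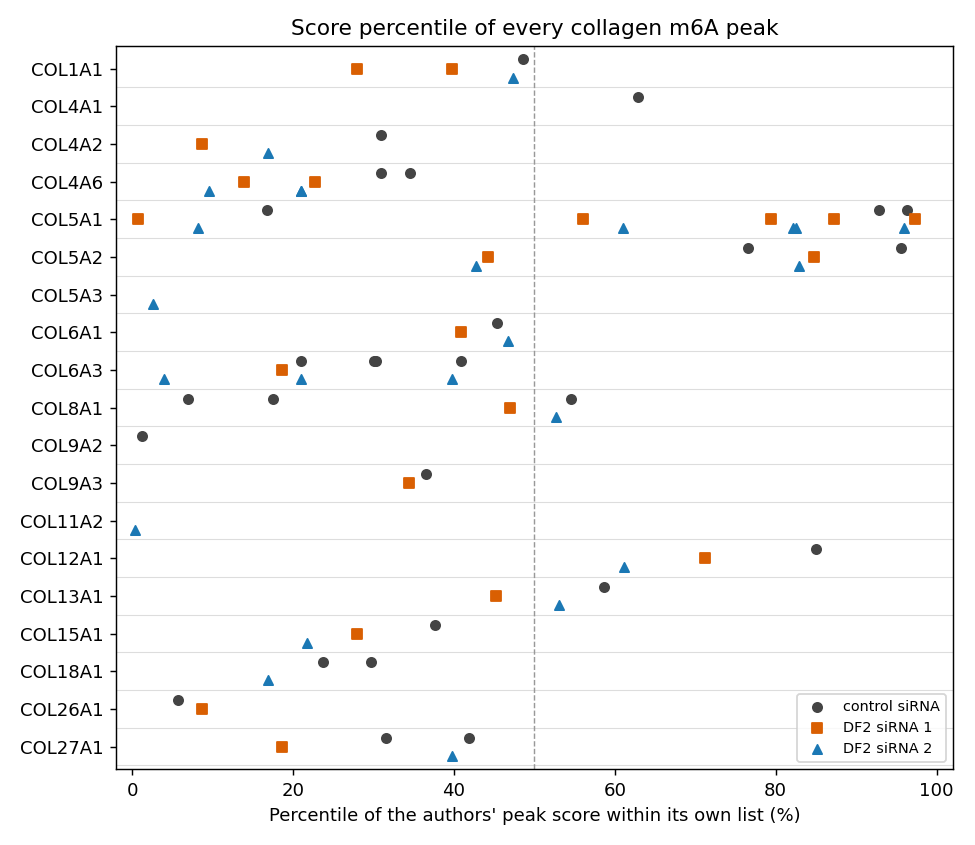
Score percentile of each of the 73 collagen peaks within its own list (horizontal axis, %), by gene, with circles for control siRNA, squares for DF2 siRNA 1 and triangles for DF2 siRNA 2. The dashed line marks percentile 50. COL5A1 and COL5A2 hold the points furthest right, and COL12A1 lies right of the line in all 3 lists.

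Type V collagen, a minor fibrillar collagen that sets the width of type I fibrils, had the highest-ranked collagen peaks by score. Its α1 chain gene COL5A1, on the plus strand of chromosome 9, had a peak across the stop codon in each list. It ran from 134835103 to 134842854 in control (hg38) and to 134843054 with either siRNA, over coding sequence and 3′ UTR in 2 exonic stretches. Ranked by score it stood at percentile 96.4, 97.3 and 95.9 of the control, siRNA 1 and siRNA 2 lists, and its fold was 28.1, 77.3 and 37.0. A separate 3′ UTR peak ended at 134844654 in each list, 189 bases before the RefSeq end of the gene. That peak covered 1200 bases in control and with siRNA 1 and 1000 with siRNA 2, at percentiles 92.8, 87.2 and 82.1. By score COL5A1 was thus high in every list with both of its 3′ peaks. By fold the stop codon peak stood at percentiles 65.7, 94.1 and 76.7, in control below peaks of COL8A1, COL12A1, COL6A3 and COL27A1.

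COL5A2, which encodes the α2 chain of the same molecule, had the same arrangement on the minus strand of chromosome 2. Its stop codon peak lay from 189033652 to 189035150 in control and from 189033852 to 189034950 in both siRNA lists. The score percentiles were 95.5, 84.8 and 82.8. The folds were 25.9, 29.4 and 22.2, at percentiles 62.2, 74.2 and 57.7 by fold. Its 3′ UTR peak had its 3′ edge at 189032852 in each list and covered 600 bases in control and 400 with each siRNA. By score it stood at percentile 76.5, 44.2 and 42.7. The neighbouring COL3A1, 19151 bases away, had no peak in any list. COL5A3, the third gene of this type, had a peak with siRNA 2 alone, at percentile 2.54, with a fold of 4.78 and a −log10 FDR of 1.35.

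COL5A1 was also the only collagen gene with regions in both siRNA lists that no control peak overlapped. The first covered 200 bases of 5′ UTR from 134641774 to 134641973 and began 29 bases before the RefSeq gene start. It stood at percentile 56.0 with siRNA 1 (fold 17.3, −log10 FDR 4.90) and 61.0 with siRNA 2 (fold 14.0, −log10 FDR 2.16). The second covered 400 coding bases in 4 separate exonic stretches between 134805020 and 134809153. Its percentiles were 79.5 and 82.5, its folds 14.9 and 11.8, and its −log10 FDR 2.77 and 1.37. These regions place COL5A1 at 5 peaks in each siRNA list and 3 in control. Another COL5A1 peak shared by all lists, ending at 134709074 with no transcript part named, stood low, at percentiles 16.8, 0.795 and 8.14.

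The start of the COL5A1 transcript lies wholly inside the 5′ UTR peak, and part of it is shown because GGAC, a common core of m6A sites, occurs there. The 30 bases are chr9:134641821-134641850 on the plus strand of GRCh38.p14, from RefSeq, with the GGAC in capitals.
COL5A1: cgcggctggcgcaGGACctcactcgagcgg
RefSeq gives a pair of starts for this gene, and the motif begins at base 32 or 30 after them. GGAC was searched on both strands of the first 50 transcribed bases, and in COL5A1 it was found on each. On the transcript strand it occurs in 18.9% of 35116 RefSeq start windows, and on either strand in 33.5%. COL13A1 is the other collagen gene with a peak that reaches into these first 50 bases, and its 25 bases inside the peak hold no GGAC on either strand. A match of letters does not show that the base is methylated.

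COL1A1, the main chain of type I collagen, the chief protein of bone, had a stop codon peak of middle rank. On the minus strand of chromosome 17 it ran from 50185108 to 50185507 in control and from 50184508 to 50185507 in both siRNA lists. It covered 400 bases in control and 1000 with each siRNA. The score percentile was 48.6, 39.7 and 47.3. The fold was 14.2, 9.65 and 35.2, and by fold the peak stood at percentile 37.2, 29.9 and 75.1 of its list. With siRNA 1 alone a second COL1A1 peak covered 200 bases of 5′ UTR and coding sequence between 50200014 and 50201432, with a −log10 FDR of 1.39.

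COL27A1, a fibrillar collagen of developing cartilage, had its peaks near the 5′ end. The one in every list lay in coding sequence on chromosome 9, from 114167965 to 114168964 in control, and covered 1000, 400 and 600 bases. Its percentiles were 41.9, 18.7 and 39.8 and its folds 40.4, 8.68 and 29.8. A second control peak, 200 bases downstream of the first, overlapped no siRNA peak and had a −log10 FDR of 1.51. COL11A2, a cartilage fibril gene, had a peak with siRNA 2 alone. That peak, in the 3′ UTR, had the lowest score of its list, 3, as did 103 peaks in all.

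Of the basement membrane genes, COL4A1 and COL4A2 differed although their products are made together as type IV collagen. The genes lie 126 bases apart on chromosome 13 and are read in opposite directions. COL4A1 had a peak in control alone, from 110148963 to 110149350 in the 3′ UTR, reaching the last base of the RefSeq gene. This peak stood at percentile 62.9 by score and 46.2 by fold, with a fold of 17.5 and a −log10 FDR of 3.54. No peak was listed for COL4A1 with either siRNA. COL4A2 had a 3′ UTR peak from 110459095 in each list, over 600 bases in control, 400 with siRNA 1 and 200 with siRNA 2. Its percentiles were 31.0, 8.66 and 16.9 and its folds 24.5, 6.22 and 8.44. With siRNA 2 its −log10 FDR was 1.53.

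COL4A6, the X-linked basement membrane gene, had a peak in every list, and part of its peaks differed in place. A peak with no transcript part named by the authors lay from 108268271 to 108269070 in control and from 108268471 to 108269070 with each siRNA. It stood at percentiles 34.6, 22.8 and 21.0. Near the 3′ end, control and siRNA 1 shared a peak with its 5′ edge at 108159489 on the minus strand. It stood at percentile 31.0 in control and 13.9 with siRNA 1, with a −log10 FDR of 4.93 and 2.59. In the siRNA 2 list the 3′ peaks of this gene lay at 108162924 to 108163123 and 108163524 to 108165433, and neither overlapped a peak of the other lists. Both were low, at percentiles 9.57 and 21.0 with a −log10 FDR of 1.66 and 2.08. Whether the methylated place differed was not tested. COL4A5, which lies 379 bases from COL4A6 on the opposite strand, had no peak in any list.

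Type VI collagen, which forms beaded filaments, was represented by COL6A1 and COL6A3. COL6A1 had the same 3′ UTR peak in each list, 543 bases from 46004508 to 46005050 on chromosome 21. It was the only collagen peak with identical ends in all 3 lists, and it stood at percentiles 45.3, 40.9 and 46.8 with folds of 18.9, 13.6 and 20.8. COL6A3 had 4 control peaks, 1 peak with siRNA 1 and 3 with siRNA 2. The coding peak from 237340631 occurred in each list, with folds of 41.9, 8.68 and 37.5. It covered 600, 400 and 600 bases. A second stretch of COL6A3, between 237377251 and 237386574, held 2 control peaks and 1 siRNA 2 peak and none with siRNA 1.

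COL8A1, a short-chain collagen of vessel walls and cornea, had the highest fold of any collagen peak in control and with siRNA 2. Its stop codon peak began at 99791000 on chromosome 3 in each list. The folds were 69.3, 23.6 and 67.8, at percentiles 95.7, 67.1 and 92.3 by fold. By score the same peak stood only at percentiles 54.5, 47.0 and 52.7, so its place depends on which of the authors' measures is ranked. The control list held 2 more COL8A1 peaks that overlapped none in the siRNA lists, at score percentiles 6.91 and 17.6. The first was classed as 5′ UTR. The second, from 99795819 to 99796418, was also given a stop codon, with coding sequence and 3′ UTR. No 3′ UTR was named for the stop codon peak shared by all lists, which lies 3999 bases before the RefSeq end in control.

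Among collagens that sit on fibrils, COL12A1 ranked highest. Its peak at the 5′ UTR and start of the coding sequence had its 5′ edge at 75183650 on the minus strand of chromosome 6 in each list. The percentiles were 85.0, 71.2 and 61.2 and the folds 45.7, 25.8 and 24.4. COL9A3, of cartilage type IX collagen, had a stop codon peak in control (percentile 36.6) and with siRNA 1 (34.5) and none with siRNA 2. Its control peak was weak by fold (6.93, percentile 9.63 by fold), with a −log10 FDR of 1.78. COL9A2 had a 3′ UTR peak of 151 bases in control alone. Its score of 3 and fold of 3.42 are the lowest in the control list, and 388 peaks have this score.

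The transmembrane collagen COL13A1, found at nerve-muscle junctions, had its peak at the very start of the gene. It began at 69801931 on chromosome 10, 25 bases after the RefSeq start, in each list. The percentiles were 58.7, 45.2 and 53.1, and the folds 26.9, 22.9 and 45.7. COL15A1 and COL18A1 encode basement membrane collagens that are cut to release fragments such as endostatin. COL15A1 had a coding peak in each list, joined across a span of 41914 bases in control, at percentiles 37.6, 28.0 and 21.7. With siRNA 2 the −log10 FDR of this peak was 1.32. COL18A1 had a 3′ UTR peak that ended on the last base of the gene in control (percentile 23.7) and with siRNA 2 (16.9). The control list also held a coding COL18A1 peak, and the siRNA 1 list held no peak of this gene. COL26A1 had a weak 3′ UTR peak in control and with siRNA 1, at percentiles 5.65 and 8.66, with a −log10 FDR of 1.47 in control.

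**Figure D2:**
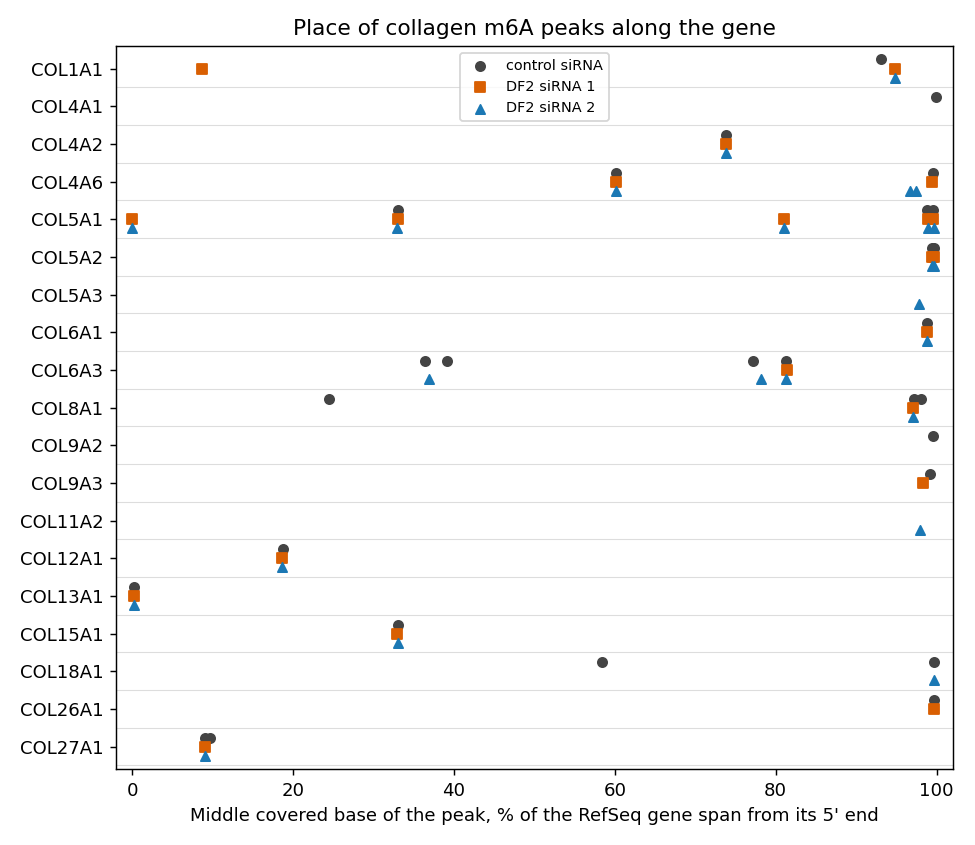
Place of each of the 73 collagen peaks, as the position of its middle covered base in percent of the RefSeq gene span from the 5′ end (horizontal axis), by gene and list. Symbols are circles for control siRNA, squares for DF2 siRNA 1 and triangles for DF2 siRNA 2. Points gather at the right edge, while COL12A1, COL13A1, COL15A1 and COL27A1 lie left of 50% in every list.

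Whether collagen genes differed between control and DF2 siRNA lists was read from the presence of peaks. As 1 control list serves both comparisons, their counts stand side by side only. Of 17 collagen genes with a control peak, 3 had none with siRNA 1, COL4A1, COL9A2 and COL18A1. That is 17.6% (3.80 to 43.4), against 22.1% of all genes with a control peak. With siRNA 2, 4 had none, COL4A1, COL9A2, COL9A3 and COL26A1, or 23.5% (6.81 to 49.9) against 17.6%. COL4A1 and COL9A2 had none in either siRNA list, 11.8% (1.46 to 36.4) against 13.5%. All these shares lie near those of the whole lists.

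Few collagen genes appeared in a DF2 siRNA list alone. None of the 14 genes of the siRNA 1 list lacked a control peak (0%, up to 23.2), against 11.1% of all genes there. With siRNA 2, COL5A3 and COL11A2 of 15 genes lacked one, or 13.3% (1.66 to 40.5), against 8.06%. None of the 12 genes with a peak in both siRNA lists lacked a control peak (up to 26.5%), against 5.15%. COL4A1 was without a siRNA peak also among peaks with an FDR under 0.01, in equally long lists and in the top 50% by score, and COL9A2 was in none of these. In the top 50% by fold neither was counted. COL4A2, COL4A6, COL15A1 and COL18A1, of 11 collagen genes in that part of the control list, were instead the genes found there in control alone. The shares of all genes under these cuts were not computed.

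At the level of peaks, 15 of 28 control collagen peaks shared bases with peaks of siRNA 1 and also of siRNA 2, or 53.6% (33.9 to 72.5) against 62.8% of all control peaks. They formed 15 regions, at least 1 in each of the 12 genes found in every list. Another 7 overlapped neither, or 25.0% (10.7 to 44.9) against 22.3%. These were COL4A1, COL9A2, 2 of COL8A1 and 1 each of COL6A3, COL18A1 and COL27A1, and of them only COL4A1 was above percentile 50 by score. Of siRNA 1 peaks 3 of 21 overlapped no control peak, 14.3% (3.05 to 36.3) against 18.5%. Of siRNA 2 peaks 7 of 24 did not, 29.2% (12.6 to 51.1) against 13.9%, and 2 of these are the COL5A1 regions above. Peaks of 1 gene share its RNA, so they are not independent and the true uncertainty is larger than these intervals.

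Most collagen peaks had a stated FDR under 0.01. Peaks with an FDR of 0.01 or more were 5 of 28 in control, 17.9% (6.06 to 36.9) against 18.8% of all peaks. They were 2 of 21 with siRNA 1, 9.52% (1.17 to 30.4) against 17.3%, and 6 of 24 with siRNA 2, 25.0% (9.77 to 46.7) against 17.3%.

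By the authors' annotation, collagen peaks included a stop codon in a smaller share than the list average, within wide intervals. The class held 9 of 28 control peaks, 32.1% (15.9 to 52.4) against 42.9%, then 5 of 21 with siRNA 1, 23.8% (8.22 to 47.2) against 43.5%. With siRNA 2 it held 6 of 24, 25.0% (9.77 to 46.7) against 43.7%. Each interval includes the list average, so no difference was detectable with this number of peaks. Stop codon peaks of COL1A1, COL5A1, COL5A2 and COL8A1 were present in every list. Peaks of 3′ UTR without stop codon were 8, 6 and 6, or 28.6%, 28.6% and 25.0%, against 19.1%, 17.1% and 17.1% of all peaks. Peaks of 5′ UTR were 3, 4 and 3, or 10.7%, 19.0% and 12.5%, against 14.4%, 18.9% and 16.6%.

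Coding sequence alone held a larger share of collagen peaks than of all peaks in each list. There were 6 in control, 21.4% (8.30 to 41.0) against 7.45%, 4 with siRNA 1, 19.0% (5.45 to 41.9) against 10.9%, and 6 with siRNA 2, 25.0% (9.77 to 46.7) against 9.16%. The interval lay above the list average in control and with siRNA 2 and included it with siRNA 1, but some of these peaks share a gene. These peaks came from few genes, COL6A3, COL15A1 and COL27A1 in each list, with COL18A1 in control, COL5A1 with either siRNA and COL4A6 with siRNA 2. Peaks with no transcript part named were 2, 2 and 3, or 7.14% (0.877 to 23.5), 9.52% (1.17 to 30.4) and 12.5% (2.66 to 32.4), against 2.78%, 1.31% and 2.17%. The interval lay above the list average with siRNA 2, by a small margin (2.66 against 2.17), and included it in the other lists. These peaks belong to COL4A6 and COL5A1 in every list and to COL6A3 with siRNA 2. Several classes were read in each list without allowance for their number, and the lists share genes, so these intervals are a description only.

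**Figure D3:**
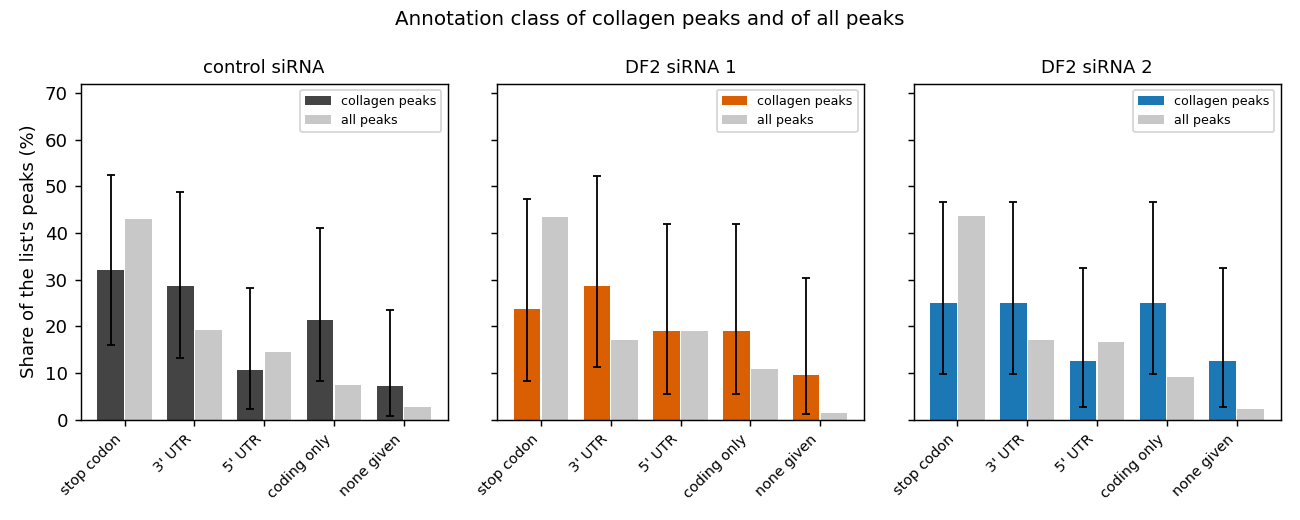
Share of collagen peaks (coloured bars, with 95% exact binomial intervals) and of all peaks (grey bars) in each annotation class, in percent of the peaks of a list, with a panel per condition. Coloured bars are lower than grey ones for stop codons and higher for coding sequence alone in each panel, and each stop codon interval reaches past its grey bar.

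Collagen genes have many short exons, and their peaks were joined over separate exonic stretches about as often as others. More than 1 stretch was covered by 12 of 28 control peaks, 42.9% against 45.3% of all, by 8 of 21 with siRNA 1, 38.1% against 40.6%, and by 10 of 24 with siRNA 2, 41.7% against 42.2%. By place along the RefSeq gene span, introns included, the middle of 14 control peaks lay in the last 10%, a share of 50% (30.6 to 69.4) against 39.8% of all peaks whose symbol RefSeq holds. With siRNA 1 there were 10, 47.6% (25.7 to 70.2) against 37.5%, and with siRNA 2 12, 50% (29.1 to 70.9) against 38.3%. In the first 10% lay 3, 4 and 3 peaks, 10.7%, 19.0% and 12.5%, against 13.9%, 18.7% and 16.3%. All 6 collagen intervals for these end stretches include the share of all peaks.

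Matched collagen peaks covered fewer bases in a siRNA list more often than they covered more, as did matched peaks at large. Where a control peak matched a single siRNA 1 peak and the reverse, 11 of 18 collagen pairs were shorter with siRNA 1, 5 equal and 2 longer. Over all such pairs 45.7% were shorter and 15.0% longer. With siRNA 2, 8 of 16 collagen pairs were shorter, 4 equal and 4 longer, against 36.5% shorter and 16.5% longer. COL1A1 and the stop codon peak of COL5A1 were longer with either siRNA. In total collagen peaks covered 17238 bases in control, 10943 with siRNA 1 and 13468 with siRNA 2, with medians of 600, 400 and 600 per peak. All peaks together covered 12085547, 9120366 and 10065668 bases, also fewest with siRNA 1, with a median of 600 in each list. How many bases are covered moves with how much was called in a list, and the depth behind the lists is unknown.

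**Figure D4:**
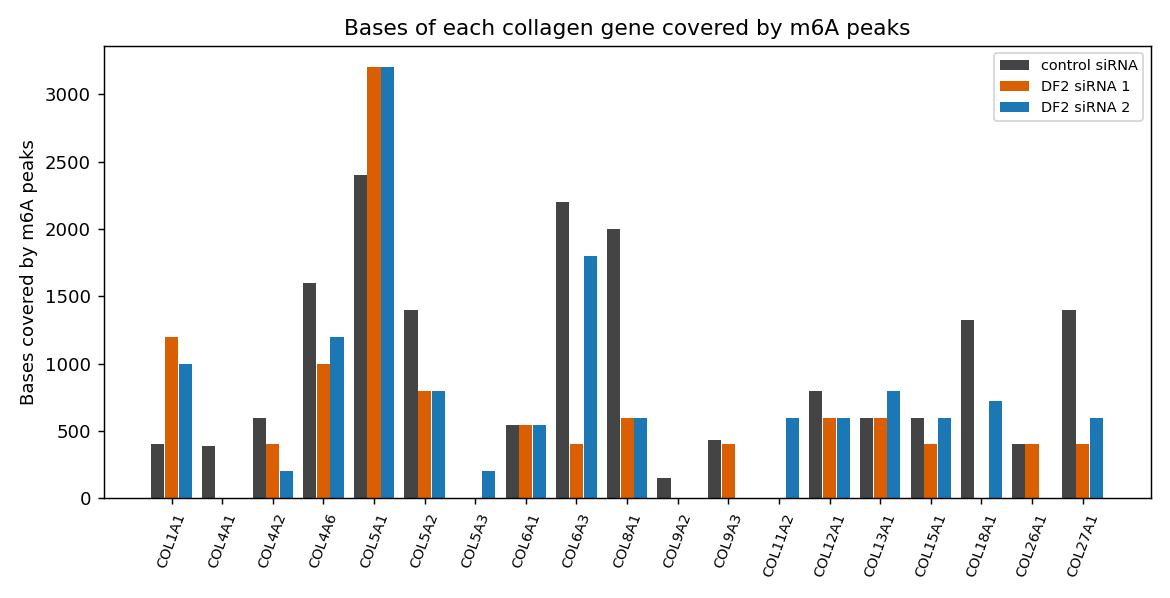
Bases covered by m6A peaks in each of the 19 collagen genes (vertical axis, summed over the peaks of a gene), with a bar per condition and no bar where a list has no peak. COL5A1 has the most in each list, 2400 in control and 3200 with either siRNA, and COL6A3 ranges from 400 with siRNA 1 to 2200 in control.

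Enzyme genes that modify collagen chains had a higher group median by score than the chain genes, with a wide range. Percentiles by fold were not computed for this or the other pathway groups, so the order holds for score only. Of 15 such genes, 12, 12 and 11 had a peak in the control, siRNA 1 and siRNA 2 lists, where 36.5%, 34.5% and 33.8% of all protein-coding symbols had one. The same background applies to the pathway counts that follow. The strongest peak of a gene had a median percentile of 92.8, 89.8 and 89.5 in this group, beside 41.9, 37.1 and 39.8 for collagen genes. It ranged from 12.95 to 99.9 in control, from 20.8 to 99.9 with siRNA 1 and from 31.95 to 99.9 with siRNA 2. The low end was PLOD3 in control, and P4HA2, a prolyl 4-hydroxylase subunit, in the siRNA lists, so some members stood below the collagen median. P4HA2 is named here after its values were seen. COLGALT1, which adds galactose to hydroxylysine, stood at percentiles 99.7, 99.5 and 99.0. The prolyl 3-hydroxylase gene P3H1 stood at 88.6, 91.3 and 89.5, and CRTAP, its partner, at 87.0, 82.3 and 73.5. The lysyl hydroxylase gene PLOD2 stood at 97.1, 88.3 and 77.8, with its strongest peak in the 3′ UTR in control and at the stop codon with either siRNA. PLOD3, of the same enzyme family, had a peak with no transcript part named in control, a 5′ UTR peak with siRNA 1 and no siRNA 2 peak.

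Of 11 chaperone and secretion genes 5, 7 and 5 had a peak. The collagen chaperone SERPINH1 stood at percentiles 99.0, 95.8 and 98.6, and the proline isomerase FKBP10 at 99.7, 99.8 and 99.8. SERPINH1 had 3 peaks in each list, the strongest in the 3′ UTR in control and at the stop codon with either siRNA. MIA3, a cargo receptor that loads collagen for export, stood at 88.3, 81.6 and 70.5. Its strongest peak was at the stop codon in control and in coding sequence alone with either siRNA. SEC24D, a coat protein of export vesicles, had a stop codon peak in both siRNA lists and none in control, at percentiles 35.9 and 44.8. FKBP14 had a peak with siRNA 1 alone. MIA2 had a peak in coding sequence alone in control, one at the stop codon with siRNA 1 and none with siRNA 2.

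Of 13 genes that trim or cross-link collagen 6, 5 and 6 had a peak. BMP1, the protease that removes the C-terminal propeptide, stood at percentiles 87.5, 90.6 and 88.3. PCOLCE, an enhancer of that cut, had a peak in control alone, at percentile 1.27 with a fold of 3.42, the lowest values of that list. The cross-linking enzyme gene LOX had peaks in both siRNA lists and none in control, LOXL2 had one in each list, and LOXL3 had none with siRNA 1. The receptor genes ITGA1, DDR1, DDR2 and MRC2, 4 of 10 listed, had a peak in each list. None of the 7 collagen-degrading protease genes had a peak in any list. Of 8 regulators, LARP6, which binds collagen mRNA, RUNX2, CCN2, TGFB1 and SMAD3 had a peak in each list. In all, 32, 33 and 31 of 64 pathway genes had a peak, PCOLCE was in control alone, and SEC24D and LOX were in both siRNA lists alone. Over all genes, 13.5% of those with a control peak were in control alone, and 5.15% of those in both siRNA lists had no control peak.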

How the data were processed

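Per the submitters' processing notes, reads were aligned with HISAT2 to hg38. The lists are named as merged over r1 and r2, while the labels hold 1 input and 1 enriched sample per condition. Peak caller, annotation release and merging: not given in the sources used here. Each peak has a deposited score, a whole number of undefined meaning. The fold enrichment (ratio) and the −log10 FDR of each peak are also the authors' values, per the file headers. Read depths are unknown, so the number of peaks sets the precision.

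Starts were raised by 1, and block sizes were reversed on the minus strand, after which block ends matched peak ends. Peaks shared at least 1 base of a block on the same strand. Percentiles are mid-ranks within a list. A stop codon peak includes a stop codon; other classes follow the UTR or coding part named. Genes were counted by symbol, and all 19 members matched RefSeq GRCh38.p14, used for spans and start sequences.

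Every collagen gene with a peak is named; of the other gene lists, members that differ in presence or class between peak lists and up to 6 others in alphabetical order could be named. The members and lists were chosen with earlier results of these data known. The result of 1 lineage marker is not reported here. Simulated peaks were used to test the overlap code. Python 3.11.15, pandas 2.3.3 and scipy 1.17.1 were used. No test was made, with 1 list per condition. Alternatives were peaks of FDR under 0.01, equally long lists, the top 50% by score or fold, other overlap rules, updated symbols, another stop codon class and fold ranks.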

Additional observations from a re-analysis of the deposited data

How the results depend on the processing

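Of 67 recomputed values, 48 stayed near the main value (counts within 1.5 times, shares and medians within the main interval). Some of these had no room to move. The siRNA 1 list is the shortest, so its own values are the same in equally long lists. No collagen stop codon peak touched a 5′ UTR, so the other stop codon class repeated the main shares. Updated symbols left every gene count unchanged. In the top 50% by score, collagen genes with a peak numbered 6, 3 and 5 (control, siRNA 1, siRNA 2). Of them 3 (COL5A1, COL5A2 and COL12A1) were in every list and 1 was in control alone, and 4 of 8 control peaks overlapped both siRNA lists. Percentiles were ranked anew within the kept peaks, so they are not on the scale of the full lists. The medians were then 61.5 in control, 64.3 with siRNA 1 and 43.3 with siRNA 2. In the top 50% by fold, 11, 5 and 9 genes had a peak, 5 were in every list and 4 were in control alone. There 6 of 13 control peaks overlapped both, and the control median by score, ranked anew within the kept peaks, was 28.2. These settings keep fewer peaks by construction. The shares of all genes and of all peaks were not computed under them, so these collagen counts have no background. Genes in control alone numbered 1 with an FDR under 0.01 and 1 in equally long lists, where the control median, also ranked anew, was 27.5. Ranked by fold in place of score, the control median was 48.7; the cause was not tested. With no replicates, nothing could be left out in turn. No paired analysis was possible because each condition has 1 merged list. Depth is unknown, so a missing peak may lie under the detection limit of its list.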

Other observations

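Some collagen peaks carry an annotation that differs from their place in the RefSeq gene. The 3′ UTR peak of COL4A2 lies 53515 bases before the RefSeq end in control, at 73.9% of the gene span. A COL6A3 control peak that the authors class with stop codon and 3′ UTR lies 57003 bases before the end, at 36.4% of the span. The COL6A3 control peak from 237344345 to 237344744, also given a stop codon, lies 20327 bases before it. Which transcripts these annotations refer to is not known from the lists.

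Different collagen genes share exact values within a list. With siRNA 1, COL4A2 and COL26A1 both have a score of 6, a fold of 6.22 and a −log10 FDR of 3.29, which 68 peaks share. COL6A3 and COL27A1 both have a score of 10, a fold of 8.68 and a −log10 FDR of 3.63, shared by 17 peaks. Peaks whose 3 values recur elsewhere in the list make up 30.7% of the control list, 49.9% with siRNA 1 and 28.2% with siRNA 2.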
